A study of Oryzias latipes with 27 samples.

Results

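miR-143 and miR-145 are miRNAs of smooth muscle and other mural and stromal cells, and every row of the deposited tables named for miR-143 or miR-145 was taken, whichever arm of the hairpin it came from. This gave 4 of the 437 mature miRNAs, namely miR-143-3p, miR-143-5p, miR-145-5p and miR-145-3p. Small RNA was sequenced from gonads of medaka (Oryzias latipes), a small freshwater fish with XX females and XY males, as 27 libraries in 9 groups of 3 biological replicates. Wild-type fish gave the ovaries of females (WT_Fe_Ov) and the testes of males (WT_Ma_Te). MT_Fe_Ov is the ovary of XY fish that carry a TALEN disruption of DMY, the male-determining gene of the Y chromosome, and that develop as females. The sampling ages, in days after hatching, were 10 (D10), 30 (D30) and 120 (D120). At D10 the samples held the gonadal primordium with the tissue around it, the head and tail being left out, so that a difference between D10 and a later stage cannot be told apart from a difference in dissection.

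In mammals and zebrafish the miR-143 and miR-145 hairpins lie next to each other and are made from a shared primary transcript, which serum response factor and its cofactor myocardin turn on in vascular smooth muscle. The mature miRNAs hold smooth muscle in its contractile state, and in mammalian tissue they come mainly from fibroblasts, smooth muscle and pericytes rather than epithelium. Drosha and Dicer cut each hairpin into a 5p and a 3p arm, of which 1 is usually loaded into Argonaute and the other is mostly degraded; the loaded arm is the 3p arm for miR-143 and the 5p arm for miR-145. In the RefSeq annotation of the medaka assembly ASM223467v1 there was 1 gene of each name. mir143 lay on chromosome 10 from 4587604 to 4587712 and mir145 on the same chromosome from 4587826 to 4587885, 113 bases further on. No other gene overlapped either hairpin. The nearest annotated gene on the lower side was abhd18, 10836 bases away, and that on the upper side was the lncRNA LOC111948083, 176 bases away.

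The summed miRNA counts were 2518868 to 8818687 per library at D10, 54535 to 810120 at D30 and 1054214 to 3517578 at D120. Levels are given as reads per 1000000 miRNA counts (RPM), and 1 read is worth far more RPM at D30 than at the other stages. In summed miRNA counts the D30 MT_Fe_Ov libraries were the shallowest, at 107271, 54535 and 351194. The paper's summaries differ on their total reads. By its mapping summary each of them had more than any D120 library, and by its quality summary each had fewer. In the mapping summary a smaller share of their reads mapped to miRNAs than in any D120 library. miRNAs of other tissues were high at D10, where the skeletal muscle list (miR-1, miR-133, miR-206 and miR-499) summed to 89201 to 156474 RPM against 757 to 8915 RPM at D30. In D30 MT_Fe_Ov replicate 3 the neural list (miR-9, miR-124, miR-153 and miR-219) reached 50827 RPM against 93.2 and 385 RPM in the other replicates. miR-202, the miRNA used to mark the gonad, was above 0 in every library but ranged from 112 to 473 RPM at D10. At D120 it ranged from 241577 to 270705 RPM in WT_Fe_Ov, but from 634 to 1105 in MT_Fe_Ov and from 1157 to 1471 in WT_Ma_Te. In each of these last groups 1 of its 2 rows had 0 counts in all 3 libraries. The part of tissue makeup in the results was not tested. In these whole tissues, fewer cells of a type and less RNA per cell cannot be told apart.

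miR-143-3p, the loaded arm of its hairpin, was among the most abundant miRNAs of the gonad. In the D120 testis it ranked first of all 437 miRNAs in each library, at 94218, 91018 and 101404 RPM. The D120 ovaries held less, with 46972, 67964 and 47452 RPM in WT_Fe_Ov and 63072, 74949 and 44889 RPM in MT_Fe_Ov. No ovary library reached the testis range at D120, which held for 60.5% (WT_Fe_Ov) and 58.1% (MT_Fe_Ov) of all miRNAs tested against the testis, and the ovaries of the wild type and the mutant overlapped (7.56% of miRNAs did not). At D30 the testis libraries stood at 79698, 68169 and 66165 RPM. The D30 WT_Fe_Ov libraries stood at 27081, 22319 and 27220 RPM, and those of MT_Fe_Ov at 6134, 8197 and 6686 RPM. The D30 groups were therefore apart from each other, with testis above wild-type ovary and wild-type ovary above mutant ovary. Of all miRNAs tested at D30, 67.6% did not overlap between WT_Fe_Ov and testis, 56.4% between MT_Fe_Ov and testis and 35.2% between the ovaries. The order was different at D10, where WT_Fe_Ov held 17092, 8348 and 16610 RPM, MT_Fe_Ov 17784, 16068 and 18426 RPM, and WT_Ma_Te 7402, 3005 and 6112 RPM. There the testis was the lowest group and did not overlap with either ovary, while the ovaries overlapped (9.02% of all miRNAs did not).

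**Figure D1:**
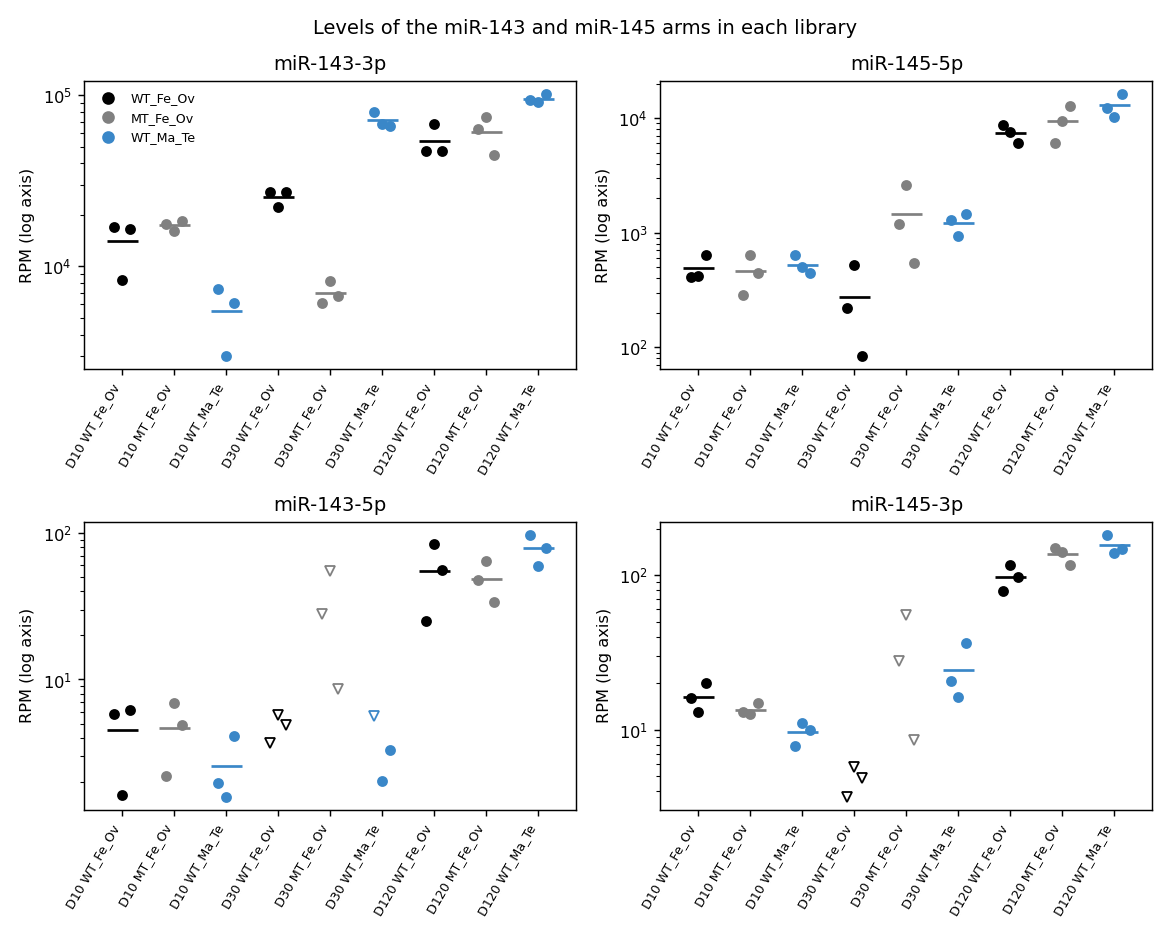
RPM (log axis) of the 4 mature arms in each of the 27 libraries, in 9 groups of 3; points are libraries, lines are group means, and open triangles mark libraries with 0 counts, drawn at the level that 3 counts would give. miR-143-3p spans 3005 to 101404 RPM, and both minor arms have 0 counts in all 6 ovary libraries at D30.

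miR-145-5p, the loaded arm of the neighbouring hairpin, was much rarer before adulthood. It stood at 413, 420 and 636 RPM in D10 WT_Fe_Ov, at 287, 643 and 448 RPM in MT_Fe_Ov and at 637, 501 and 443 RPM in WT_Ma_Te. These D10 groups overlapped, in contrast to those of miR-143-3p. At D30 the WT_Fe_Ov libraries held 220, 517 and 84.2 RPM, the lowest group mean of the 9 at 274 ± 221 RPM (SD, n = 3). MT_Fe_Ov held 1193, 2585 and 547 RPM and WT_Ma_Te 1284, 939 and 1453 RPM. At this stage the wild-type ovary lay below both other groups, which overlapped. The gap to the mutant ovary was narrow, 517 against 547 RPM. Of all miRNAs tested, 35.2% did not overlap between the ovaries and 67.6% between WT_Fe_Ov and testis. The D30 ovary values rested on few reads, 501 counts of miR-145-5p over the 3 WT_Fe_Ov libraries and 461 over those of MT_Fe_Ov. By D120 all groups were far higher, at 8626, 7556 and 6027 RPM in WT_Fe_Ov, 6096, 9430 and 12758 RPM in MT_Fe_Ov, and 12326, 10138 and 16160 RPM in WT_Ma_Te. The testis lay above the wild-type ovary, where 60.5% of all miRNAs tested did not overlap, and it overlapped with the mutant ovary.

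Ordered by group mean, miR-143-3p ran from D120 testis (95547 ± 5319 RPM, SD, n = 3) through D30 testis (71344 ± 7304), D120 MT_Fe_Ov (60970 ± 15140), D120 WT_Fe_Ov (54129 ± 11983), D30 WT_Fe_Ov (25540 ± 2790), D10 MT_Fe_Ov (17426 ± 1219), D10 WT_Fe_Ov (14017 ± 4915) and D30 MT_Fe_Ov (7005 ± 1068) to D10 testis (5506 ± 2260). Of the neighbours in this order, D30 testis and D120 MT_Fe_Ov, the D120 ovaries, the D10 ovaries, and D30 MT_Fe_Ov and D10 testis overlapped. For miR-145-5p the 3 D120 groups came first, D120 testis at 12875 ± 3048 RPM, and the D30 MT_Fe_Ov mean of 1442 ± 1042 RPM ranked above all other groups of D10 and D30. Among its neighbours the only gaps lay below the D120 groups and between D30 testis and the D10 groups. Together the miR-143 and miR-145 arms made up 0.605% of all miRNA counts in D10 testis and 10.9% in D120 testis, the lowest and highest group means.

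The study compared the genotypes within each stage, and these comparisons were tested with edgeR on the counts, a miRNA being called at an adjusted p of at most 0.05 and a log2 fold change of at least 1 either way. The clearest differences of the pair lay at D30. miR-143-3p was lower in WT_Fe_Ov than in WT_Ma_Te by a log2 fold change of -1.40 (SE 0.239, edgeR adjusted p = 0.00123), in a contrast that called 46.8% of the 250 miRNAs tested. In MT_Fe_Ov it was lower than in WT_Ma_Te by -2.99 (SE 0.253, edgeR adjusted p = 6.44e-05), with 31.6% called. It was also lower in MT_Fe_Ov than in WT_Fe_Ov, by -1.59 (SE 0.240, edgeR adjusted p = 0.00125), with 28.4% called. Without MT_Fe_Ov replicate 3, the library with the high neural miRNAs, the last difference was -1.71 (edgeR adjusted p = 0.00117). The median over all miRNAs tested was -0.65, -0.29 and 0.17 in these 3 contrasts and moved to -0.73, -0.60 and -0.01 with library totals alone, where miR-143-3p stood at -1.48, -3.35 and -1.87, below the median under both scalings. Markers of other tissues differed between the same D30 groups. miR-202 lay in the same order as miR-143-3p, at 127278 to 140263 RPM in testis, 8647 to 12639 in WT_Fe_Ov and 5153 to 5910 in MT_Fe_Ov. The skin list (miR-203 and miR-205) summed to 2568 to 5004 RPM in WT_Fe_Ov against 105 to 131 in MT_Fe_Ov, and the skeletal muscle list to 7381 to 8915 RPM in testis against 757 to 2946 in the ovaries. Their part in the differences of miR-143-3p was not tested.

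miR-145-5p did not follow its neighbour at D30. It was lower in WT_Fe_Ov than in WT_Ma_Te by a log2 fold change of -2.14 (SE 0.621, edgeR adjusted p = 0.0170), as miR-143-3p was. In MT_Fe_Ov, however, it was higher than in WT_Fe_Ov by 2.62 (SE 0.635, edgeR adjusted p = 0.0122), whereas miR-143-3p was lower there. Against the testis, MT_Fe_Ov gave 0.48 (SE 0.599, edgeR adjusted p = 0.575), which did not pass. Both calls of miR-145-5p lay near the threshold. The call of WT_Fe_Ov against the testis was lost without WT_Fe_Ov replicate 1 or 3 or any 1 of the 3 testis libraries, with log2 fold changes of -2.13 to -1.51 and edgeR adjusted p-values of 0.0576 to 0.0847. That between the ovaries was lost without MT_Fe_Ov replicate 2, at 1.92 and an edgeR adjusted p of 0.0510. Of the arms that could be tested at D30, 2 of 2 were called in WT_Fe_Ov against WT_Ma_Te (46.8% of all miRNAs tested), 1 of 2 in MT_Fe_Ov against WT_Ma_Te (31.6%) and 2 of 2 in MT_Fe_Ov against WT_Fe_Ov (28.4%), and the 2 minor arms had too few counts for the test. The erythroid list (miR-144 and miR-451) differed between the same groups. It summed to 5025, 6433 and 5647 RPM in WT_Fe_Ov, 15913, 27964 and 7782 RPM in MT_Fe_Ov and 30723, 18444 and 26883 RPM in WT_Ma_Te. Like miR-145-5p it was lowest in WT_Fe_Ov. Lists of gut and of epithelial miRNAs were lowest there too, and the skin list was highest there. The gut list summed to 253 to 452 RPM in WT_Fe_Ov, 638 to 2815 in MT_Fe_Ov and 547 to 841 in WT_Ma_Te. The epithelial list summed to 6456 to 8723, 9294 to 18169 and 14466 to 17951 RPM in these groups. Over the 3 libraries of a group, the order of the erythroid list was that of miR-145-5p in MT_Fe_Ov but not in WT_Fe_Ov or WT_Ma_Te. Of the 2 erythroid rows tested, 1 was called higher and 0 lower in MT_Fe_Ov against WT_Fe_Ov. Against the testis, 0 were higher and 2 lower in WT_Fe_Ov, and 0 higher and 1 lower in MT_Fe_Ov, where miR-145-5p was not called. The part of these lists in the D30 values of miR-145-5p was not tested.

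**Figure D2:**
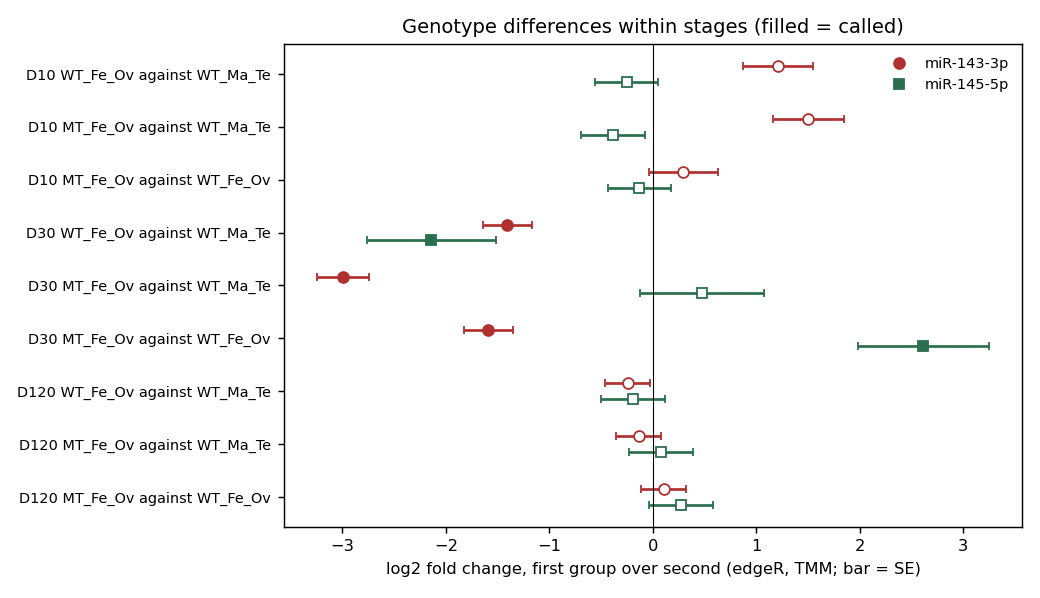
Log2 fold change of the first group over the second (edgeR with TMM scaling; bars are SE, 3 libraries a group) of miR-143-3p and miR-145-5p in the 9 genotype comparisons, filled where called. At D30 the ovaries differ in opposite directions, -1.59 for miR-143-3p and 2.62 for miR-145-5p in MT_Fe_Ov against WT_Fe_Ov.

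At D10 no miRNA of any kind was called by edgeR (0% of 388 in each contrast, with 76, 72 and 11 at an unadjusted p under 0.05). miR-143-3p was higher in WT_Fe_Ov than in WT_Ma_Te by 1.21 (SE 0.339, edgeR adjusted p = 0.123) and in MT_Fe_Ov than in WT_Ma_Te by 1.51 (SE 0.342, edgeR adjusted p = 0.156), so neither value passed in this fit. Both passed with DESeq2, at 1.21 and 1.49 with adjusted p-values of 0.0170 and 0.00465, and in an edgeR fit of all 27 libraries, at 1.25 and 1.51 with adjusted p-values of 0.0239 and 0.00472. How many of all miRNAs passed in these fits was not counted. The paper's own DESeq2 analysis also called miRNAs in both contrasts at D10. Its summary gives only their number, not whether miR-143-3p was among them. The RPM values of miR-143-3p did not overlap in either contrast, which held for 21.9% and 22.2% of all miRNAs tested. For miR-145-5p the D10 values were -0.25 (SE 0.307) and -0.38 (SE 0.307), with edgeR adjusted p-values of 0.689 and 0.531. At D120 no member was called, in contrasts that called 38.1% of 344 miRNAs for WT_Fe_Ov against WT_Ma_Te, 36% for MT_Fe_Ov against WT_Ma_Te and 0.581% between the ovaries. miR-143-3p stood at -0.24 (SE 0.220, edgeR adjusted p = 0.400) and -0.14 (SE 0.220, edgeR adjusted p = 0.659) against the testis, although its RPM did not overlap. RPM and the fit scale the libraries differently: with library totals alone these values became -0.82 and -0.65, while the median of all miRNAs moved from 0.04 to -0.54 and from -0.01 to -0.52. Read against the median, the adult gap of miR-143-3p was therefore small under either scaling. miR-145-5p stood at -0.19 (SE 0.309, edgeR adjusted p = 0.640) in WT_Fe_Ov and 0.08 (SE 0.309, edgeR adjusted p = 0.861) in MT_Fe_Ov against the testis.

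Across the stages, miR-143-3p took a separate course in each genotype, with steps from D10 that cannot be told apart from the change of dissection. In the testis it rose from D10 to D30 by a log2 fold change of 3.54 (SE 0.294, edgeR adjusted p = 1.04e-09), in a contrast that called 60.7% of 399 miRNAs, and then stood at 0.37 (SE 0.266, edgeR adjusted p = 0.265) from D30 to D120, where 43.6% were called. In MT_Fe_Ov it fell by 1.14 on the log2 scale from D10 to D30 (SE 0.270, edgeR adjusted p = 0.000944; 55.4% called) and rose by 3.12 from D30 to D120 (SE 0.288, edgeR adjusted p = 4.83e-09; 53.1% called). That fall was just past the fold threshold and was -0.94 with DESeq2 or with its size factors, below the threshold. In WT_Fe_Ov the value from D10 to D30 was 0.94 (SE 0.268, edgeR adjusted p = 0.00315), under the fold threshold, in a contrast that called 74.7%. The rise from D30 to D120 was 1.20 (SE 0.269, edgeR adjusted p = 0.000449), with 65.4% called. The WT_Fe_Ov value from D10 to D30 passed the threshold without D10 replicate 1, D10 replicate 3 or D30 replicate 2, reaching at most 1.34. Over all miRNAs the median D10 to D30 change was -3.34 in the wild-type ovary, -0.36 in the testis and -2.07 in the mutant ovary. miR-143-3p lay above the median in each genotype. These medians take in miRNAs of the other tissues held at D10. In the same order, 10, 9 and 9 of the 10 skeletal muscle rows were called lower. The medians also take in miRNAs without counts at D30. Of all 437 miRNAs, 182, 61 and 156 had 0 counts in all 3 D30 libraries. They are thus no measure of a typical miRNA of the gonad. From D30 to D120 the medians, which take in the same miRNAs without counts, were 2.02, 0.78 and 1.44. There miR-143-3p lay below the median in the wild-type ovary and the testis and above it in the mutant ovary.

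miR-145-5p rose late. From D30 to D120 it was higher by a log2 fold change of 4.91 (SE 0.561, edgeR adjusted p = 7.17e-08) in the wild-type ovary, 3.34 (SE 0.520, edgeR adjusted p = 1.78e-05) in the testis and 2.95 (SE 0.515, edgeR adjusted p = 3.76e-05) in the mutant ovary, each above the median of all miRNAs. From D10 to D30 it rose in MT_Fe_Ov, by 1.65 (SE 0.492, edgeR adjusted p = 0.00612). In WT_Ma_Te that value was 1.02 (SE 0.481, edgeR adjusted p = 0.0689), and in WT_Fe_Ov it was -0.77 (SE 0.481, edgeR adjusted p = 0.144), neither of which passed. Without D30 WT_Fe_Ov replicate 2, the highest library of its group, the WT_Fe_Ov value was -1.66 and was called.

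Whether the genotype differences themselves changed with stage was tested with interaction terms in the fit of all 27 libraries. For miR-143-3p the difference between MT_Fe_Ov and WT_Ma_Te moved by -4.68 (SE 0.395, edgeR adjusted p = 1.17e-08) from D10 to D30, from higher in the ovary to lower, and back by 2.74 (SE 0.383, edgeR adjusted p = 1.09e-05) from D30 to D120. These interactions called 33.3% and 35.3% of miRNAs. The difference between WT_Fe_Ov and WT_Ma_Te moved by -2.60 (SE 0.382, edgeR adjusted p = 5.27e-06; 49.6% called) from D10 to D30. From D30 to D120 it moved by 0.83 (SE 0.376, edgeR adjusted p = 0.0772; 45.1% called), which did not pass. Between the ovaries miR-143-3p moved by -2.08 (edgeR adjusted p = 0.000271; 25.3% called) and then by 1.91 (edgeR adjusted p = 0.000592; 21.6% called). miR-145-5p moved the other way between the same ovaries, by 2.42 (SE 0.687, edgeR adjusted p = 0.0111) and then by -1.96 (SE 0.684, edgeR adjusted p = 0.0431). The second of these was lost when 1 of 8 of its libraries was left out (highest edgeR adjusted p = 0.117), and the first stayed called without any 1 library (highest edgeR adjusted p = 0.0498).

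The number of miR-143 reads per miR-145 read, both arms summed, does not depend on how libraries are scaled. It was 39.8, 19.3 and 25.3 in D10 WT_Fe_Ov, 59.3, 24.5 and 39.8 in D10 MT_Fe_Ov and 11.5, 5.87 and 13.5 in D10 WT_Ma_Te. At D30 it was 123, 43.2 and 323 in WT_Fe_Ov, 61.1, 71.4 and 44.4 in WT_Ma_Te and 5.14, 3.17 and 12.2 in MT_Fe_Ov. The mutant ovary lay below both wild-type groups at D30, with a geometric mean of 5.83 against 119 and 57.8. It was 20.5-fold lower than WT_Fe_Ov and 9.92-fold lower than WT_Ma_Te, each with a two-sided exact permutation p of 0.1 (0.225 after adjustment over 9 comparisons), which is the smallest that 3 libraries against 3 can give. The 20.5-fold value became 12.5-fold without WT_Fe_Ov replicate 3 and 34.2-fold without WT_Fe_Ov replicate 2, an alternative chosen after seeing the data. At D120 the groups drew together, at 5.40, 8.87 and 7.76 in WT_Fe_Ov, 10.1, 7.84 and 3.49 in MT_Fe_Ov and 7.54, 8.86 and 6.22 in WT_Ma_Te. The geometric means were 7.19, 6.51 and 7.46, and all 3 groups overlapped.

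**Figure D3:**
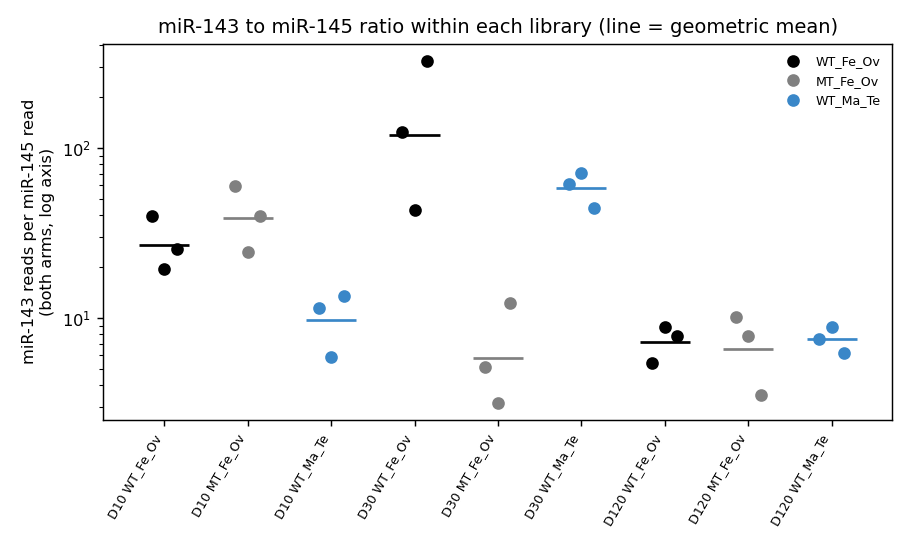
miR-143 reads per miR-145 read within each library (log axis), both arms summed; points are libraries and lines are geometric means of 3. The ratio ranges from 3.17 in a D30 MT_Fe_Ov library to 323 in a D30 WT_Fe_Ov library and lies between 3.49 and 10.1 in all 9 D120 libraries.

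With stage labels permuted within genotypes (8000 arrangements, two-sided exact permutation test, 18 tests adjusted together), the log2 ratio of miR-143 to miR-145 was lower at D120 than at D10 by a mean of -1.62 (p = 0.001, adjusted p = 0.00788), with a lower mean in each of the 3 genotypes. Against D30 it was lower by -2.28 (exact permutation p = 0.00325, adjusted p = 0.00975), with a lower mean in WT_Fe_Ov and WT_Ma_Te, while MT_Fe_Ov stood at 5.83 at D30 and 6.51 at D120. D30 against D10 gave 0.66 (exact permutation adjusted p = 0.451). Permuted within stages, no genotype comparison of this ratio passed, with exact permutation adjusted p-values of 0.0665 to 0.502. This test averages over the 3 stages, so that differences of opposite sign cancel. For MT_Fe_Ov against WT_Ma_Te they were 2.00 at D10, -3.31 at D30 and -0.20 at D120, with a mean of -0.50. It therefore cannot decide on a difference at 1 stage.

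The minor arms were rare throughout. miR-143-5p stood at 1.59 to 6.94 RPM in the D10 libraries and at 25.1 to 97.1 RPM in those of D120. At D30 it had 0 counts in every ovary library and 0, 1 and 1 counts in the testis libraries. miR-145-3p stood at 7.90 to 20.04 RPM at D10 and 78.4 to 182 RPM at D120, and at D30 it had 11, 8 and 11 counts in the testis libraries and 0 in every ovary library. Many other miRNAs were also without counts in the D30 ovaries: of 337 miRNAs counted in all 18 libraries of D10 and D120, 27.9% had 0 counts in all 3 D30 WT_Fe_Ov libraries and 21.7% in all 3 of MT_Fe_Ov, against 1.48% in the testis. Mean D120 levels were set against a floor, the mean RPM that 3 counts per D30 library would give. By these means miR-143-5p was at least 11.5-fold higher at D120 in WT_Fe_Ov and 10.9-fold in WT_Ma_Te. In MT_Fe_Ov the value was 1.60-fold and did not hold library by library. The D30 floors there were 28.0, 55.0 and 8.54 RPM, and the D120 libraries held 48.0, 64.2 and 34.0 RPM. By the same means miR-145-3p was at least 20.4-fold higher at D120 in WT_Fe_Ov and 4.47-fold in MT_Fe_Ov. In the testis, where counts allowed a fit, miR-145-3p rose from D30 to D120 by 2.67 on the log2 scale (SE 0.358, edgeR adjusted p = 9.04e-06). None of the minor arms was called in any genotype comparison at D10 or D120.

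The share of each hairpin's reads that came from its minor arm differed between D10 and D120 in opposite directions. For miR-143 the 5p arm gave 0.0315% of reads at D10 (221 of 701112, exact Clopper-Pearson 95% interval 0.0275 to 0.0360%) and 0.0918% at D120 (1009 of 1098916, 0.0862 to 0.0977%). For miR-145 the 3p arm gave 2.81% at D10 (700 of 24884, 2.61 to 3.03%) and 1.35% at D120 (2040 of 151541, 1.29 to 1.41%). The intervals cover counting error only. Over libraries, the log2 ratio of 3p to 5p of miR-143 was lower at D120 than at D10 by -1.35 (exact permutation p = 0.0005, adjusted p = 0.00788) and the log2 ratio of 5p to 3p of miR-145 higher by 1.00 (exact permutation p = 0.0015, adjusted p = 0.00788), each in all 3 genotypes. At D30 the shares rested on few minor-arm reads. As a group the WT_Fe_Ov libraries were no shallower than the testis libraries, at 810120, 524342 and 617883 counts against 533474, 490031 and 303501. The 2 reads of miR-143-5p in 149919, pooled over libraries, gave 0.00133% (0.000162 to 0.00482%), below the pooled D10 interval. Upper limits of single libraries reached 0.822% in MT_Fe_Ov. For miR-145-3p the testis share was 1.86% (30 of 1616, 1.26 to 2.64%). The 0 of 501 reads in WT_Fe_Ov and 0 of 461 in MT_Fe_Ov had exact upper limits of 0.734% and 0.797%, and 3 counts would have been 0.599% and 0.651%. Both upper limits lay below the testis interval when reads were pooled over libraries. Library by library, the upper limits were 1.35 to 6.85% in WT_Fe_Ov and 1.90 to 2.84% in MT_Fe_Ov. All of these reached into the testis library intervals, whose lower limits were 0.741 to 1.22%, so the pooled gap does not set the groups apart. No genotype comparison of an arm ratio passed (exact permutation adjusted p-values of 0.137 to 0.933). These tests average over the stages, D30 included. In every D30 ovary library the minor arm had 0 counts, so the ratio there was set by the reads of the loaded arm. For miR-143 in MT_Fe_Ov against WT_Fe_Ov the log2 differences were 0.29 at D10, -4.20 at D30 and 0.22 at D120. The tests therefore cannot decide whether the use of the arms differed between genotypes.

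**Figure D4:**
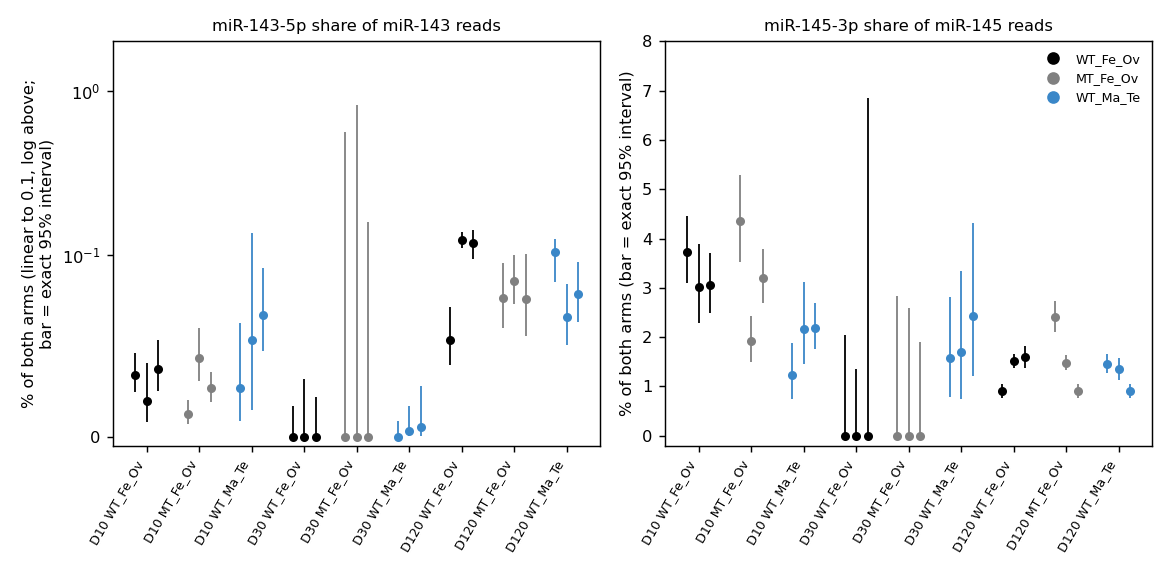
Minor arm as a percent of both arms in each library, with exact 95% binomial intervals: miR-143-5p on an axis that is linear to 0.1% and logarithmic above, and miR-145-3p on a linear axis. The pooled miR-143-5p share goes from 0.0315% at D10 to 0.0918% at D120, and the pooled miR-145-3p share from 2.81% to 1.35%.

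miRNAs of neighbouring cell types were read beside the pair. miR-126b-3p, from a host gene of endothelium (EGFL7 in mammals), followed miR-143-3p in part. It stood at 9747 ± 299 RPM in D30 testis against 2635 ± 339 in WT_Fe_Ov and 2507 ± 973 in MT_Fe_Ov (SD, n = 3), with log2 fold changes of -1.82 (edgeR adjusted p = 0.000333) and -1.64 (edgeR adjusted p = 0.00125) against the testis. Between the D30 ovaries it gave 0.17 (SE 0.236, edgeR adjusted p = 0.623), where miR-143-3p and miR-145-5p were each called in opposite directions. The other arm, miR-126b-5p, gave -3.13 in WT_Fe_Ov and -1.89 in MT_Fe_Ov against the D30 testis. Neither was called (edgeR adjusted p = 0.0579 and 0.244). miR-199 and miR-214, which mammals and zebrafish make from a shared transcript in mesenchyme and fibroblasts, did not show 1 pattern. miR-199-3p had D30 values of -0.25 and -0.27 against the testis (edgeR adjusted p = 0.572 and 0.533), and miR-214-3p was higher in WT_Fe_Ov than in testis by 1.68 (SE 0.376, edgeR adjusted p = 0.00465). miR-199-5p fell with miR-143-3p, at -2.27 (edgeR adjusted p = 0.00176) in WT_Fe_Ov and -3.54 (edgeR adjusted p = 0.000633) in MT_Fe_Ov against the testis. miR-214b-5p was also lower, at -2.49 (edgeR adjusted p = 0.00157) in WT_Fe_Ov and -2.26 (edgeR adjusted p = 0.00497) in MT_Fe_Ov. miR-214a-5p had too few counts for the test at D30. Of the 4 stromal rows tested at D30, 1 was higher and 2 were lower in WT_Fe_Ov, and 0 higher and 2 lower in MT_Fe_Ov, against the testis, where 46.8% and 31.6% of all miRNAs were called. Between the D30 ovaries 1 of the 4 was called, miR-199-5p, lower in MT_Fe_Ov by -1.27 (SE 0.426, edgeR adjusted p = 0.0473), the direction of miR-143-3p, with 28.4% of all miRNAs called.

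**Figure D5:**
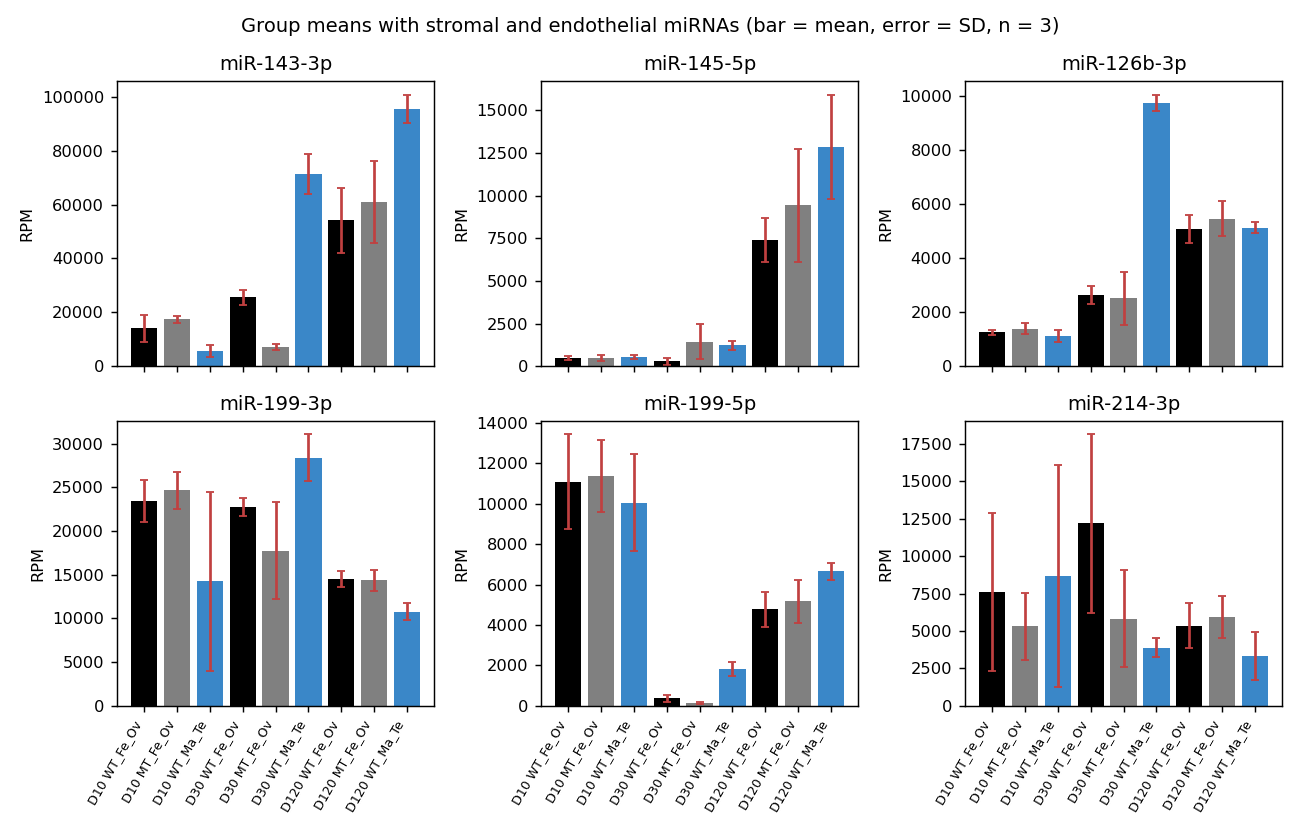
Group means in RPM (linear axes from 0; error bars are SD, n = 3) of miR-143-3p and miR-145-5p beside the endothelial miR-126b-3p and the stromal miR-199-3p, miR-199-5p and miR-214-3p. miR-143-3p and miR-126b-3p are both high in D30 testis, at 71344 and 9747 RPM, and miR-199-3p shows no such step.

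As a description, levels were correlated over the 9 group means of log2(RPM + 1), points that share depth and tissue makeup, among 196 other miRNAs averaging at least 100 RPM. miR-143-3p and miR-145-5p had a Pearson r of 0.67 with each other (Spearman 0.63). The miRNAs named next were picked as the highest and lowest of the 196, so their values give no measure for that of the pair. Closest to miR-143-3p were miR-210-3p, known from the hypoxia response (0.91), miR-27a-3p (0.89), the blood-cell miR-142-5p (0.88), miR-457a-5p (0.86) and miR-126b-3p (0.86). Farthest were miR-196a-5p, encoded in the Hox clusters (-0.84), and miR-192-3p, of gut and liver (-0.79). Closest to miR-145-5p were the erythroid miR-451-5p (0.95), miR-30c-2-5p (0.92), miR-16a-5p (0.92), miR-142-5p (0.91) and miR-144-3p (0.89), the last made with miR-451 from a shared transcript. Farthest were miR-375a-3p, of endocrine cells (-0.96), and miR-181a-5-3p (-0.96). The median r over the 196 was 0.11 for each. The miR-199 and miR-214 rows, taken at any level, ranged from -0.15 to 0.34 with miR-143-3p and from -0.55 to 0.50 with miR-145-5p. The other endothelial arm, miR-126b-5p, gave 0.44 and 0.72. The erythroid list summed to 5025 to 30723 RPM at D30 and 48959 to 126363 RPM at D120, and its part in the rise of miR-145-5p was not tested. By Spearman's rho 3 of the 5 miRNAs closest to miR-143-3p and 1 of the 5 closest to miR-145-5p stayed among the first 5.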

How the data were processed

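The authors sequenced small RNA of 17 to 32 bases, kept reads longer than 17 nt of base quality 20 or more, mapped them to ASM223467v1 with miRDeep2 and counted them on FishmiRNA mature sequences. The handling of reads shared by near-identical miRNAs is not given in the sources used here. The deposited tables hold raw counts and RPM, which the authors computed per 1000000 summed miRNA counts (recomputed here to within 4.97e-05). Genotype contrasts were fitted within a stage, and stage contrasts and interactions over 27 libraries, with edgeR 4.0.16 in R 4.3.3: quasi-likelihood F test, TMM, a filter of 10 counts or more in 3 or more libraries, Benjamini-Hochberg adjustment over all miRNAs tested. Ratios used counts + 0.5. Scripts were tested on simulated data. Alternatives were DESeq2 1.42.0, other scalings and filters, a replicate block, and leaving out each library. The members and lists were chosen with earlier results of these data known; all members are named, with the miRNAs most and least like them and the miR-199, miR-214 and miR-126 rows. Among 27 same-numbered pairs of libraries, 6 deviations correlated above 0.1 (r from -0.24 to 0.25), so numbers were not taken as pairs. No libraries of the same group were alike within sampling noise, and libraries of different groups were not compared in this way.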

Additional observations from a re-analysis of the deposited data

Results flagged for a closer look

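Genotype differences that changed between stages, by the interaction test in edgeR (log2 scale, difference at the later stage less that at the earlier), were as follows. For miR-143-3p the difference from the testis changed from D10 to D30 by -2.60 in the wild-type ovary and by -4.68 in the mutant ovary, and that of the mutant from the wild-type ovary by -2.08. From D30 to D120 the mutant ovary changed by 2.74 relative to the testis and by 1.91 relative to the wild-type ovary. For miR-145-5p the change from D10 to D30 was -1.79 in WT_Fe_Ov against WT_Ma_Te (edgeR adjusted p = 0.0328, lost when any 1 of 7 of its libraries was left out, at up to 0.146) and 2.42 in MT_Fe_Ov against WT_Fe_Ov, and from D30 to D120 it was -1.96 in MT_Fe_Ov against WT_Fe_Ov. The fitted values of miR-145-3p were -9.51 and 8.50 in WT_Fe_Ov against WT_Ma_Te and -9.17 and 8.93 in MT_Fe_Ov against WT_Ma_Te. They rest on 0 counts in the D30 ovaries, where the size depends on the prior count, and are not bounds. For MT_Fe_Ov no least fold can be given at D30, since the testis mean of 24.4 RPM lay under 30.5 RPM, the mean that 3 counts per MT_Fe_Ov library would give. Library by library that floor was 28.0, 55.0 and 8.54 RPM. Only the last lay below every testis library, at 20.6, 16.3 and 36.2 RPM. For WT_Fe_Ov, at a mean floor of 4.76 RPM, the testis mean was at least 5.13-fold higher at D30.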

How the results depend on the processing

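For miR-143-3p at D10, the ovary excess over testis passed the threshold with DESeq2 (1.21 in WT_Fe_Ov, 1.49 in MT_Fe_Ov) and in the fit of all 27 libraries (1.25 and 1.51). The share of all miRNAs passing at D10 in these fits was not counted. The D10 to D30 fall in MT_Fe_Ov was -0.94 with DESeq2 and with RLE scaling, under the fold threshold. For miR-145-5p, the testis change from D10 to D30 passed with library totals only (1.22) and with totals less miR-202-5p and miR-21-5p (1.38); the interaction of WT_Fe_Ov against WT_Ma_Te from D10 to D30 was lost with RLE scaling (-1.55); and that from D30 to D120 passed with the reduced totals (1.91), as did that of miR-143-3p (1.21). The miR-145 5p to 3p ratio at D30 against D10 was 2.11 on the log2 scale over all libraries and -0.17 where each arm had at least 10 counts. That setting left out every D30 ovary library, since miR-145-3p had 0 counts there. Only the testis remained, which stood at -0.11 in the full data. The setting could give no value for miR-143 at D30. The block on the replicate number, fitted for the genotype contrasts within stages and not for stage contrasts or interactions, changed no call of a member there (miR-143-3p at D30 stood at -1.42 for WT_Fe_Ov against WT_Ma_Te and -1.58 between the ovaries), and moved the D30 counts of all calls from 117, 79 and 71 to 107, 53 and 51. The cause was not tested. Without 1 library, miR-145-5p ranged from -2.89 to -1.51 for D30 WT_Fe_Ov against WT_Ma_Te, 1.92 to 3.41 for D30 MT_Fe_Ov against WT_Fe_Ov and -1.66 to -0.35 for WT_Fe_Ov D30 against D10. miR-143-3p ranged from 0.87 to 1.34 for WT_Fe_Ov D30 against D10. Among interactions, miR-145-5p ranged from -2.68 to -1.29 (WT_Fe_Ov against WT_Ma_Te, D10 to D30), 1.14 to 2.45 (the same, D30 to D120) and -2.84 to -1.53 (between ovaries, D30 to D120), and miR-143-3p from 0.69 to 1.17 (WT_Fe_Ov against WT_Ma_Te, D30 to D120). The miR-143 to miR-145 ratio ranged from -2.76 to -1.75 for D120 against D30 and from -2.06 to -1.37 for D120 against D10; with 2 libraries a group the exact permutation test could not pass. At D30 the minor arms, and miR-145-5p in the ovaries, rested on few reads.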
